A study of Mus musculus with 30 samples.

Results

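The comparison described here is the last interval of a time course of mouse leg muscle cells in culture, from 24 h to 48 h. Its members are the 12 arrays whose titles name the 24 h or the 48 h leg culture, out of 30 arrays in all. At each hour 3 replicates were hybridised to the A chip and the B chip of a paired Affymetrix design, whose probe sets are mostly different. The course also holds cultures at 0, 4 and 12 h, again with 3 replicates on each chip. The labels name the cells as mouse leg muscle and the material as total RNA, processed by the manufacturer's standard protocol. No treatment, strain, age, genotype or medium is given for any group, and the labels do not say what event starts the clock or whether replicates 1, 2 and 3 were separate cultures, so that the p-values below measure only the spread between arrays, which may be technical.

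Skeletal muscle precursors, the myoblasts, divide until they leave the cell cycle, fuse and assemble contractile fibres. Myod1 and Myf5 mark and direct the committed myoblast, Myog acts in its differentiation together with factors of the Mef2 family, and inhibitors of cyclin-dependent kinases such as Cdkn1a and Cdkn1c hold the differentiating cell out of the cycle. Serum response factor, the product of Srf, binds the CArG box and drives genes of the actin cytoskeleton in smooth, cardiac and skeletal muscle.

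Intensities were compared as log2(intensity + pseudocount), with a pseudocount of 29 on A and 54 on B, and a probe set was called at a Benjamini-Hochberg adjusted p under 0.05 from limma, over 13576 probe sets on A and 13507 on B. Replicate 3 stood apart from replicates 1 and 2 over the whole course, in 4606 probe sets of A (33.9%) and 2000 of B (14.8%). The first principal component of the 6 arrays of the comparison separated it on both chips, carrying 59% of the variance for A and 35.1% for B. Every replicate also moved up that component from 24 to 48 h. On B the scores of replicates 1, 2 and 3 were -35.9, -33.7 and 17.6 at 24 h and 1.67, 6.68 and 43.6 at 48 h, so that it carried the hour as well. With the replicates treated as interchangeable, limma called 2 probe sets on A (0.0147%) and 17 on B (0.126%), and 1077 and 1708 had an unadjusted p under 0.05. With replicate 3 as a term in the fit, which leaves every log2 change as it was and removes the offset of that replicate from the error, 349 were called on A (186 higher at 48 h, 1.37% of those tested, and 163 lower, 1.2%) and 349 on B (156 higher, 1.15%, and 193 lower, 1.43%). Every one of these calls had a step of the same sign in all 3 replicates. With the replicate number as a block 293 were called on A (2.16%) and 302 on B (2.24%). Taking 1 probe set a gene, 863 of 12446 genes (6.93%) had all 48 h arrays above all 24 h arrays and 885 (7.11%) had them below. Calls named below are those with replicate 3 as a term, unless another fit is named.

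Both counts leaned on replicates 1 and 2. Leaving out replicate 1 or 2 at 24 h left 45 or 22 calls on A and 99 or 103 on B, and leaving it out at 48 h left 88 or 161 on A and 146 or 75 on B. Dropping replicate 3 at 24 h gave 483 calls on A and 637 on B, and dropping it at 48 h gave 486 and 367. The balance of rises and falls depended on the scaling. The deposited arrays share a trimmed mean of about 500.1 to 500.2, and on A the array medians were 154.7 to 161.9 at 24 h and 173.35 to 183.4 at 48 h. Centring each array on its median moved the median step of A from 0.049 to -0.10 on the log2 scale, and the called probe sets from 53.3% higher to 15.9% higher (83 higher, 438 lower). Quantile normalization gave 41% higher on A (130 and 187). On B 44.7% were higher as deposited and 31.5% after median centring (107 and 233). The scaling to a common mean also means that a change in total RNA per culture leaves no trace, and in bulk RNA fewer cells of a type and less RNA per cell cannot be told apart.

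The muscle label held in the markers. The 10 skeletal muscle markers were all measured and none was at 0, and their summed intensity was 66350 to 77010 at 24 h and 45290 to 74720 at 48 h. Markers of endothelial cells, leukocytes, cartilage and bone, adipocytes and erythroid cells summed to less on every array than those of muscle, as did those of Schwann cells or neurons, with sums of 782.1 to 1105 at 24 h and 724.1 to 2301 at 48 h. Of the latter, 8 of 10 were measured and none was at 0. Limma called none of the 4 tested over all replicates and 2, Nefl and Nefm, higher in replicates 1 and 2 alone, where 2.24% of all genes were. Over all replicates 2 of the 4 had a higher mean at 48 h and 2 a lower one. Nefl, the light neurofilament chain, measured 279.2, 273.3 and 73.9 at 24 h and 918.9, 1131.2 and 69.7 at 48 h. Nefm, the medium chain, measured 200.3, 211.8 and 48.1 at 24 h and 400.3, 476.2 and 70.1 at 48 h. Replicate 3 was lowest in both at both hours. Leukocyte marker sums, at 715.4 to 834.7 at 24 h and 860.7 to 1138 at 48 h, did not overlap between the hours. Limma called none of the 4 tested leukocyte markers, and 4 of the 10 read below the pseudocount in most arrays of the course. The array medians of A, given above, were also higher at 48 h. The part of leukocytes in the rises below was not tested. Fibroblast markers summed to 4457 to 12810 at 24 h and 5789 to 11840 at 48 h.

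Tagln and Acta2, of the smooth-muscle-type actin cytoskeleton, fell, 2 of the 7 tested genes of the smooth muscle and pericyte list, where 1.53% of all 12446 genes fell, taking 1 probe set a gene. Tagln, which encodes the actin-binding protein transgelin, measured 4159, 3824 and 4263 at 24 h and 1595, 1804 and 1423 at 48 h in replicates 1, 2 and 3. All 3 arrays at 48 h lay below all 3 at 24 h, and replicate 3 lay with the others. The fall was 2.52-fold, a log2 change of -1.33 ± 0.15 (SE), and it was called with no replicate term (limma adjusted p = 0.00848) as well as with it (0.000301). With no replicate term, A had 0 calls without the 24 h or 48 h array of replicate 1 or the 48 h array of replicate 3. In that fit the call of Tagln was thus lost in each of these cases. Acta2, smooth muscle actin, measured 3313, 3029.9 and 1761 at 24 h and 899, 904 and 490.5 at 48 h on the B chip. Again the hours did not overlap, and the log2 change was -1.75 ± 0.18 (SE; limma adjusted p = 0.0418 with no replicate term and 0.00022 with it). A brighter Acta2 probe set on A gave 13459.6, 13604 and 13420.5 at 24 h and 11063, 8773 and 8121 at 48 h, a smaller fall of 0.55 on the log2 scale (SE 0.11; limma adjusted p = 0.0167). All 10 markers listed for smooth muscle cells and pericytes were measured and none was at 0, and their sum was 24510 to 26680 at 24 h and 15090 to 21260 at 48 h. Most of that sum was Acta2 at its A probe set, Tagln and Des, and Des was also counted among the skeletal muscle markers. Des measured 6685.8, 6424.3 and 4760.7 at 24 h and 6860.7, 5975.2 and 3799.4 at 48 h. The defining smooth muscle markers Myh11 (5.5 to 32 on the 6 arrays) and Lmod1 (11.1 to 23.5) were near the floor at both hours. Cnn1, calponin of smooth muscle, was there in replicates 1 and 2 but read 110 at 24 h and 55.1 at 48 h in replicate 3. Mcam, carried by pericytes and endothelial cells, measured 453.2, 490.3 and 667.9 at 24 h and 186.6, 179.9 and 678.9 at 48 h. It was lower at 48 h in replicates 1 and 2 and level in replicate 3, and was not called. The part of such cells in the falls of Tagln and Acta2 was not tested.

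Srf itself measured 1019, 1189.6 and 952 at 24 h and 667, 719 and 696 at 48 h. Its arrays did not overlap, and it fell by 0.58 on the log2 scale (SE 0.12; limma adjusted p = 0.017), although a second probe set for it gave -0.16 and was not called. The Srf promoter is shown because it carries the motif its own product binds. CArG boxes were counted only in their exact form, CC, then 6 bases of A or T, then GG. A site differing from that form by 1 base was not counted. In the 200 bases before the RefSeq start (GRCm38.p6), read on both strands, CArG boxes stand in a window of 1.32% of the 27025 genes with one. The Srf window, chr17:46556163-46556362 on the minus strand, holds 2, in capitals, at 82 to 73 and at 62 to 53 bases before the start:
Srf: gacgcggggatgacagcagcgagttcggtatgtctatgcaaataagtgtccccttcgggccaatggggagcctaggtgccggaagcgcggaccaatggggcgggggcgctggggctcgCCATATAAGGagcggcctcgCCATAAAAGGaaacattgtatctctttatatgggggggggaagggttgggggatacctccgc
Among the genes of the shared sarcomere list 2 of 25 with a window (8%) held the box, and among those smooth muscle and pericyte genes tested 0 of 6 with a window. Tagln had no window among the promoters used, so it was not searched for the box. A match describes the letters of the window only.

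**Figure D1:**
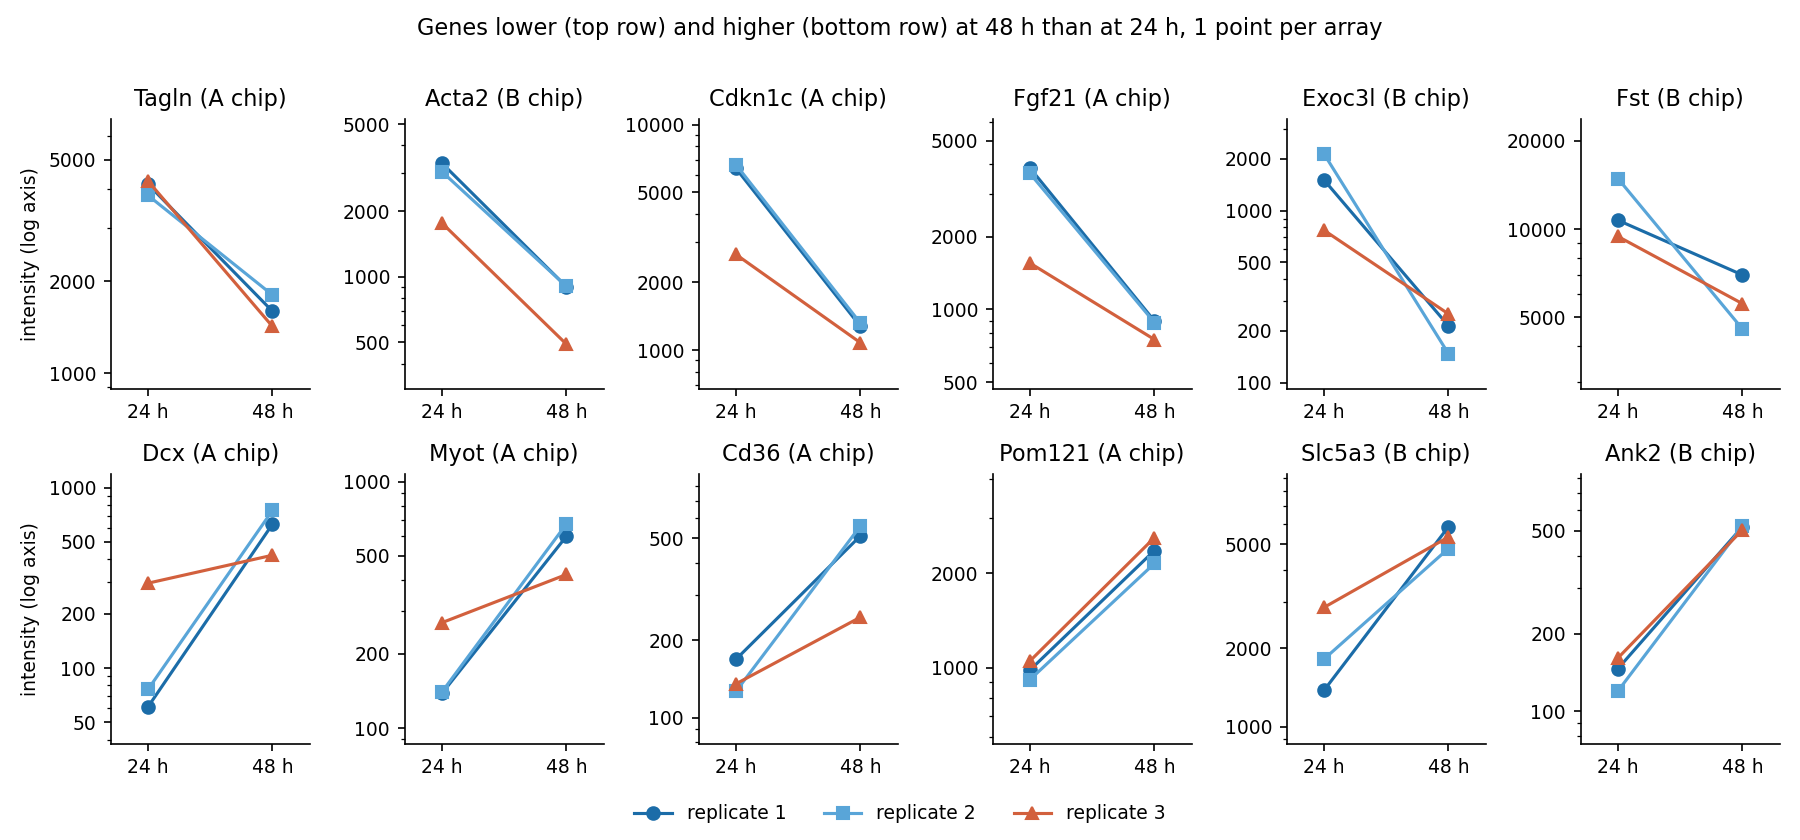
Intensity at 24 h and 48 h (log axis) of 6 genes that fell (top) and 6 that rose (bottom), 1 point per array, lines joining arrays of the same replicate number. For Tagln the 48 h arrays lie at 1423 to 1804 and the 24 h arrays at 3825 to 4263, and for Dcx replicate 3 starts higher at 24 h (295) than replicates 1 and 2 (60.9 and 76.1).

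Falls were also called for Cdkn1c, an inhibitor of the cell cycle, and for the secreted Fgf21, Igf1, Igfbp2 and Fst, which are set side by side for their roles and not as a tested group. Another secreted factor, Bdnf, rose. Cdkn1c, the cyclin-dependent kinase inhibitor p57, measured 6393, 6640 and 2655 at 24 h and 1273, 1315 and 1077 at 48 h. Replicate 3 was far below the others at 24 h and close to them at 48 h, and the hours did not overlap. The fall was 3.90-fold (log2 change -1.96 ± 0.21 SE; limma adjusted p = 0.000301, and 0.356 with no replicate term). Fgf21, a secreted metabolic hormone made by stressed muscle, measured 3858, 3659.8 and 1557 at 24 h and 896, 883 and 751 at 48 h, with replicate 3 again lowest at 24 h. It fell by 1.70 on the log2 scale (SE 0.19; limma adjusted p = 0.000301). Igf1, the growth factor that promotes muscle growth, measured 333, 389.7 and 300.5 at 24 h and 156, 110.1 and 122 at 48 h and fell by 1.23 (SE 0.23; limma adjusted p = 0.0115, and 0.0608 without the 24 h array of replicate 2). A B-chip Igf1 probe set fell by 1.55, and a pair of other A probe sets gave -0.47 and -0.23 and were not called. Igfbp2, which binds the growth factor, measured 8119.7, 8824 and 2099 at 24 h and 4274, 4368 and 978 at 48 h: replicate 3 was lowest at both hours, and each replicate ended at about the same fraction of its own 24 h value (log2 change -1.003 ± 0.158 SE; limma adjusted p = 0.00522). Of 16 genes of the insulin-like growth factor list, Igf1 and Igfbp2 fell and none rose, and Igf2, a highly expressed growth factor of muscle cultures, had a log2 difference of -0.07 that was not called. Fst, which encodes follistatin, a binder and inhibitor of myostatin, measured 10726, 14887 and 9443 at 24 h and 6979, 4566 and 5570.1 at 48 h on B and fell by 1.02 (SE 0.17; limma adjusted p = 0.0482 with no replicate term). Its A probe set gave -0.37 and was not called (limma adjusted p = 0.115).

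Other falls were as large. Exoc3l, named for its likeness to an exocyst subunit, had the largest fall on B, from 1509, 2139 and 769.9 at 24 h and 214, 148 and 251 at 48 h, 5.55-fold (log2 change -2.47 ± 0.32 SE; limma adjusted p = 0.00981 with no replicate term). Mfsd2a, a transporter of lysophosphatidylcholine, and Cdv3 fell by 1.17 and 0.68 and were also called with no replicate term (limma adjusted p = 0.0473 each). A second B probe set for Cdv3 gave 0.15, not called. On A the largest fall was of Ptgis, prostacyclin synthase, with 1973, 1808 and 226 at 24 h and 435, 492 and 17.6 at 48 h: replicate 3 was far below the others at both hours, the hours overlapped only through it, and the log2 change was -2.13 ± 0.17 (SE; limma adjusted p = 1.05e-05). Adgrg1, an adhesion receptor, fell by 1.62, and Dync1i1, a dynein intermediate chain, fell by 1.55 (limma adjusted p = 0.0557 without the 24 h array of replicate 2). Tspan33, a tetraspanin, fell by 1.28 and Mycl, a Myc family factor, fell by 1.20.

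The regulators of muscle differentiation split by factor. Of 11 tested muscle transcription factors 4 fell and none rose, where 1.53% of all 12446 genes fell and 1.05% rose, taking 1 probe set a gene; the median step of the list was -0.40 against 0.014 for all genes. Myod1 measured 7015, 7470.3 and 5571 at 24 h and 5735, 5316 and 3109 at 48 h, and fell by 0.54 (SE 0.12; limma adjusted p = 0.0272). The call was lost when the 24 h array of replicate 1, 2 or 3 or the 48 h array of replicate 2 or 3 was left out (limma adjusted p = 0.0611 to 0.136), with no filter (0.0629), with no variance trend (0.0589) and in replicates 1 and 2 alone (0.0751). Mef2d fell by 0.66 (SE 0.13; limma adjusted p = 0.0133), from 2132, 2208 and 1375 at 24 h and 1122, 1329 and 1064 at 48 h, and Mef2a by 0.42 (limma adjusted p = 0.0264). Myog had 10863, 11700.1 and 10333 at 24 h and 9456, 9479.5 and 6429 at 48 h: the 48 h arrays were all below those of 24 h, but the log2 difference of -0.39 was not called (limma adjusted p = 0.0517). Myf5, Myf6 and Mef2c differed by 0.26, 0.20 and 0.14 and were not called. Nor were the inhibitors of myogenic factors, with log2 differences of 0.13 for Id1, -0.02 for Id2 and 0.23 for Id3.

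Some genes of the shared sarcomere changed, in both directions. Of 31 tested, 25 had a lower mean at 48 h. Tpm2, Pdlim7 and Pdlim3 fell, where 1.53% of all genes fell, and Myot and Ttn rose, where 1.05% rose. At an unadjusted p under 0.05, 12 were lower and 2 higher, where 2158 of all 12446 genes passed in either direction. For Ttn the limma adjusted p was 0.037, and 0.0501 with the replicate block, which ends the call. The median step was -0.31, with -0.19, -0.15 and -0.52 in replicates 1, 2 and 3. Tpm2, a tropomyosin of the thin filament, measured 9513, 10128 and 7256 at 24 h and 4733, 5756 and 4098 at 48 h, with no overlap (log2 change -0.88 ± 0.11 SE; limma adjusted p = 0.00107). Ttn, the giant spring protein of the sarcomere, measured 3342, 3862 and 2468 at 24 h and 7020.2, 7236 and 3042 at 48 h, so that its rise was large in replicates 1 and 2 and small in replicate 3. Limma called none of 11 developmental, 8 fast and 5 slow sarcomere isoforms, of which 1 developmental isoform had an unadjusted p under 0.05, nor any of 20 excitation-contraction coupling genes (1 higher and 2 lower at an unadjusted p under 0.05). Among them Myh8, the perinatal myosin heavy chain, measured 415, 415 and 782 at 24 h and 935, 1706 and 609 at 48 h, up in replicates 1 and 2 and down in replicate 3: the log2 difference of 0.91 was not called (limma adjusted p = 0.255), and in replicates 1 and 2 alone it was (0.00793). The embryonic myosin Myh3 (-0.18), the adult myosins Myh1 (-0.06), Myh4 (0.37) and Myh7 (0.18), the actins Actc1 (-0.10) and Acta1 (-0.06), the calcium channel Ryr1 (0.07) and the acetylcholine receptor subunit Chrna1 (-0.28) were not called, and Myh2 did not pass the filter on low values.

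A few genes of muscle energy use, load and the nerve-muscle contact changed. Ckm, muscle creatine kinase, measured 2691, 3365 and 2289 at 24 h and 1226, 1383 and 1192 at 48 h, a fall of 1.10 (SE 0.26; limma adjusted p = 0.036). This call was lost without any one of 5 of the 6 arrays, the 24 h array of replicate 3 excepted (limma adjusted p = 0.0537 to 0.212), with no filter (0.0765) and with no variance trend (0.0583). A B-chip Ckm probe set gave -0.39 and was not called. Ckb, the brain-type creatine kinase, fell by 0.85 (SE 0.15; limma adjusted p = 0.0088), and the other 17 of the 19 genes of the list were not called. Ankrd2, a stretch-responsive ankyrin repeat protein, measured 1206, 1327 and 864 at 24 h and 509, 510.4 and 386 at 48 h, and fell by 1.21 (SE 0.19; limma adjusted p = 0.00586, and 0.0557 without the 24 h array of replicate 2), alone among 9 genes of its list. Unc45b, the chaperone that folds myosin, fell by 1.10 and the co-chaperone Bag3 by 0.62, and the other 23 genes of the heat shock list were not called. At the neuromuscular junction Dok7, the activator of the receptor kinase MuSK, fell by 0.96, while Agrn, agrin, which signals through that kinase, rose by 0.85 (limma adjusted p = 0.0456, and 0.0624 with the replicate block). The ubiquitin ligases of atrophy, Fbxo32 (-0.32) and Trim63 (-0.74), were not called.

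The leading rises on A were of genes with a variety of roles. Dcx, doublecortin, a microtubule-binding protein known from migrating neurons, measured 60.9, 76.1 and 295 at 24 h and 627, 748 and 422 at 48 h, with all 48 h arrays above all 24 h arrays (log2 change 2.08 ± 0.36 SE; limma adjusted p = 0.00848). Without the 24 h array of replicate 1 or 2 this call was lost (limma adjusted p = 0.0647 and 0.0581). The neuronal markers Nefl and Nefm, given above, also had higher values at 48 h in replicates 1 and 2. The other 2 of the 4 tested markers of that list had a lower mean at 48 h. The part of such cells in the rise of Dcx was not tested. Myot, myotilin of the Z disc, measured 138, 140.4 and 268 at 24 h and 601, 674 and 420.1 at 48 h, and rose by 1.52 (SE 0.34; limma adjusted p = 0.0264). That call was lost without any single array but the 48 h array of replicate 3 (limma adjusted p = 0.0507 to 0.123), with quantile normalization (0.0518), with no filter (0.0654) and with a pseudocount of 1 (0.0541). Cd36, the fatty acid transporter, measured 169, 126 and 135 at 24 h and 512, 559 and 246 at 48 h, a rise of 1.37 (SE 0.31; limma adjusted p = 0.0279) that was weakest in replicate 3, and no other of the 27 genes of fatty acid oxidation was called. The call of Cd36 was lost without any single array but the 48 h array of replicate 3 (limma adjusted p = 0.07 to 0.139), with quantile normalization (0.0606) and with no filter (0.0675). Bdnf, a neurotrophin, rose by 1.24 (limma adjusted p = 0.0387, and 0.0525 with the replicate block), and Eps8, an actin-capping protein, by 1.26 (0.0125). Bdnf was also lost without any single array but the 24 h array of replicate 3 (limma adjusted p = 0.0538 to 0.24), with quantile normalization (0.0606), with no filter (0.0915) and with no variance trend (0.0554). Eps8 was lost without the 24 h array of replicate 1 or 2 or the 48 h array of replicate 1 (0.0656 to 0.0836). Pnmt, which makes adrenaline, and Msln, mesothelin, rose by 1.21 and 1.20 (limma adjusted p = 0.0356 and 0.0205). Leaving out replicate 1 or 2 at either hour ended both calls (limma adjusted p = 0.117 to 0.196 for Pnmt and 0.0862 to 0.109 for Msln), as did testing with no filter (0.0801 and 0.0532). Pnmt was lost with quantile normalization (0.0628) and a pseudocount of 1 (0.0522) as well.

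On B 5 named genes are described because they rose and were called even with no replicate term. Larger steps than some of theirs, such as 1.46 for Gm1673, were called with replicate 3 as a term and not without it (limma adjusted p = 0.00939 and 0.0518). With no replicate term, B had 0 calls without the 24 h array of replicate 1 or without the 48 h array of replicate 2. It also had 0 with only the arrays of the hours compared. In each, the calls of these 5 genes and of Acta2, Exoc3l, Mfsd2a, Cdv3 and Fst in that fit were lost. Slc5a3, the inositol transporter, measured 1378, 1816 and 2868 at 24 h and 5844, 4826 and 5341 at 48 h and rose by 1.44 (SE 0.17; limma adjusted p = 0.0473); its second probe set rose by 1.09 with replicate 3 as a term. Ank2, an ankyrin that ties membrane proteins to the cytoskeleton, measured 146, 119.9 and 161 at 24 h and 519, 521 and 504 at 48 h, a change larger than any spread between its replicates (log2 change 1.54 ± 0.24 SE; limma adjusted p = 0.0148), although a pair of other Ank2 probe sets gave 0.16 and 0.23, not called. Rai14, an actin-bundling ankyrin repeat protein, measured 105, 147 and 68.5 at 24 h and 543, 677 and 645 at 48 h (log2 change 2.10 ± 0.28 SE; limma adjusted p = 0.00981). Its A probe sets rose by 0.73 and 0.86, and another on B gave -0.14. The unnamed-function transcript C130075A20Rik rose by 1.75 (limma adjusted p = 0.00981) and the kinase Mast4 by 1.35 (0.0465; with replicate 3 as a term, 0.0527 without the 48 h array of replicate 2), with other Mast4 probe sets from -0.02 to 0.61. Probe sets of one gene also disagreed for Pip5k1a (1.82 against -0.14, 0.01 and -0.05), Pom121 (1.24 against 0.02) and the long noncoding RNA Pvt1 (1.30 on A against 0.55 and 0.32 on A and 0.48 and -0.10 on B, none of these 4 called). Those calls also depended on single arrays. Pip5k1a was lost without any but the 24 h array of replicate 1 (limma adjusted p = 0.0606 to 0.157), with no filter (0.0675) and in replicates 1 and 2 alone (0.152). Pvt1 was lost without the 24 h array of replicate 1 or 2 (limma adjusted p = 0.0741 and 0.0557), and Pom121 without that of replicate 2 (0.0559). By contrast all 4 probe sets of Hmga2, a chromatin protein of growing embryonic cells picked out after its values were seen, rose, by 1.09, 1.10, 0.99 and 1.64.

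Genes of cell division mostly had higher means at 48 h, and a minority of them were called, a count that depended on the fit and the scaling. All 50 tested genes of mitosis and G2 had a higher mean at 48 h: 14 rose and none fell, where 1.05% of all genes rose, and the median step was 0.58. Of 43 genes of DNA replication and S phase 42 had a higher mean, 9 rose and none fell, with a median of 0.42. Over all 12446 genes 6505 had a higher mean at 48 h. Top2a, the topoisomerase that untangles replicated chromosomes, measured 402, 433 and 1886 at 24 h and 1011, 1042 and 2187 at 48 h (log2 change 0.90 ± 0.18 SE; limma adjusted p = 0.0169). Leaving out replicate 1 or 2 at either hour ended the call (limma adjusted p = 0.0688 to 0.123). Replicate 3 was already higher at 24 h than replicates 1 and 2 were at 48 h. The same held for Mki67, the proliferation marker Ki-67, with 272, 294 and 1137 at 24 h and 642, 735 and 1349 at 48 h, and for Mcm5, a subunit of the replicative helicase, with 228, 205 and 893 at 24 h and 496, 463 and 1110.4 at 48 h, both called (log2 changes 0.88 and 0.80). Kif23, a kinesin of the dividing midbody, measured 268, 272 and 715 at 24 h and 734, 673 and 949.6 at 48 h and rose by 0.99 (SE 0.18; limma adjusted p = 0.00978). Cenpf of the kinetochore rose by 0.98 and Cdt1, which licenses replication origins, by 0.74. The list medians in replicates 1, 2 and 3 were 0.83, 0.73 and 0.21 for mitosis and 0.64, 0.59 and 0.15 for S phase. In replicates 1 and 2 alone 28 mitosis genes and 16 S phase genes rose, where 2.24% of all genes did. With no replicate term limma called 0 of either list, with 4 mitosis genes and 0 S phase genes at an unadjusted p under 0.05. In that fit 1035 of all 12446 genes had such a p in either direction. After median centring 4 and 3 rose, with medians of 0.43 and 0.27, and after quantile normalization 11 and 5. Over all probe sets tested, the called rises were 186 on A as deposited, 83 after median centring and 130 after quantile normalization. On B they were 156, 107 and 122. With the replicate block Bub1 (limma adjusted p = 0.054), Ube2c (0.054), Kif4 (0.0555) and Slbp (0.0528) were lost.

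**Figure D2:**
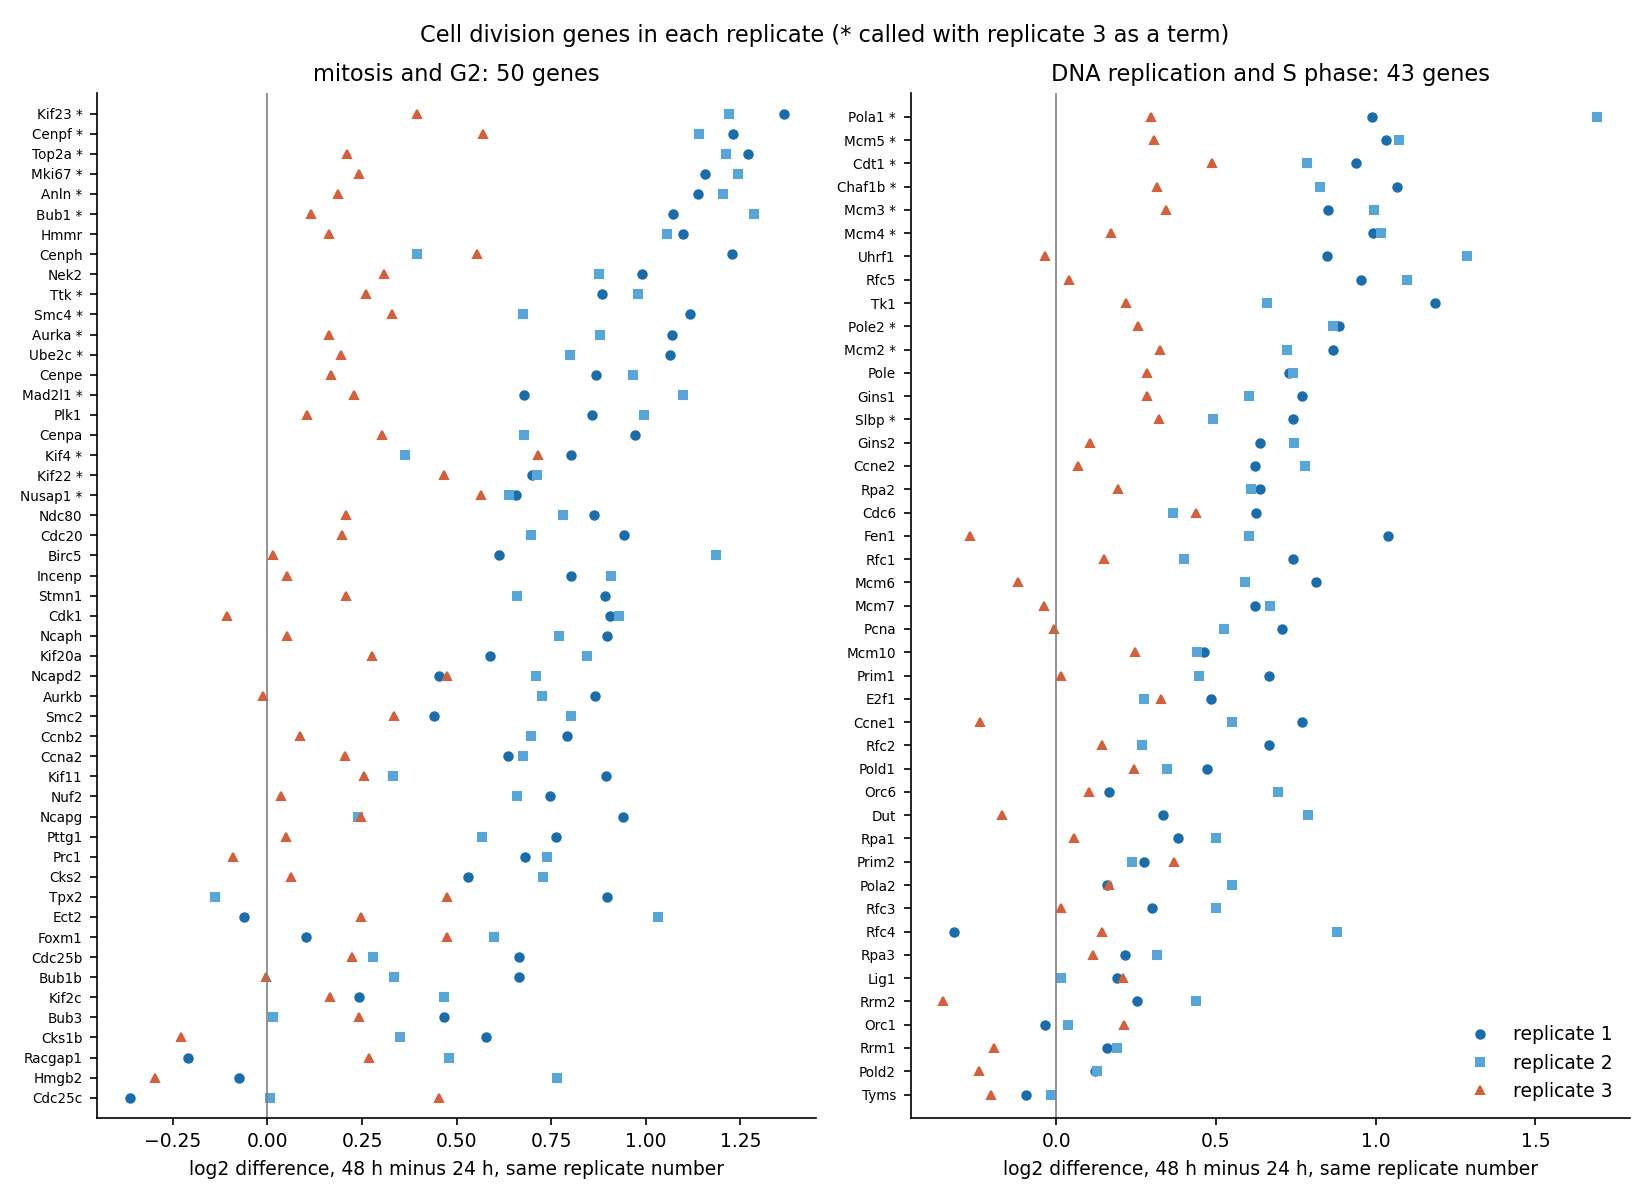
Log2 difference between 48 h and 24 h in each replicate for the 50 mitosis genes (left) and 43 S phase genes (right), 1 row per gene and 1 point per replicate, asterisks marking called genes. The points of replicates 1 and 2 lie mostly right of replicate 3, whose medians are 0.21 and 0.15, near the line at 0.

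The promoters of all genes of both lists, called or not, were searched for a pair of motifs known from cell cycle control: TTTGAA, the core of the cell cycle homology region, and CCAAT, which NF-Y binds. In the 200 bases before the RefSeq start (GRCm38.p6), searched on both strands, TTTGAA stood in a window of 14.4% and CCAAT in one of 32.7% of the 27025 genes with a window. Of the 41 mitosis genes with a window 17 (41.5%) held TTTGAA and 31 (75.6%) CCAAT. Of 36 S phase genes with a window 3 (8.33%) held TTTGAA, a lower share than over all genes, and 20 (55.6%) CCAAT. The windows of 3 risen genes are printed, as cases that hold both motifs, with every match on either strand in capitals (TTTGAA or its reverse TTCAAA, and CCAAT or its reverse ATTGG): Top2a at chr11:99024190-99024389, Mki67 at chr7:135716380-135716579 and Kif22, a chromosome-arm kinesin that rose by 0.63, at chr7:127042421-127042620, all on the minus strand.
Top2a: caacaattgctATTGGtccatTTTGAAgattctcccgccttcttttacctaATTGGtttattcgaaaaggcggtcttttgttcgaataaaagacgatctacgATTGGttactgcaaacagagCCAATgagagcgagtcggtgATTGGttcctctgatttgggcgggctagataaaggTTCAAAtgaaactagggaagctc
Mki67: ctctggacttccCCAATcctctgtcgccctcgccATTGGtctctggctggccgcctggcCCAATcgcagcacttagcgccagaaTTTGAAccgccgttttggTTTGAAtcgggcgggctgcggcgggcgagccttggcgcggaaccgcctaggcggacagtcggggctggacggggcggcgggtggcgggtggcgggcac
Kif22: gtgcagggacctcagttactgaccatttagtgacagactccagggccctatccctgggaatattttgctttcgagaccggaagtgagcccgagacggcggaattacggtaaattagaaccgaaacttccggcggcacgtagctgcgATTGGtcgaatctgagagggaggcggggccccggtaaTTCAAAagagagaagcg
The TTTGAA matches nearest the start stand 23 to 18 bases before it in Top2a, 98 to 93 in Mki67 and 17 to 12 in Kif22. Top2a holds 5 CCAAT matches, Mki67 3 and Kif22 1.

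Regulators of the entry into the cycle moved on both sides. Ccnd1, the G1 cyclin D1, measured 1827, 1991 and 3572 at 24 h and 3645, 3315 and 4449 at 48 h, and rose by 0.68 (SE 0.13; limma adjusted p = 0.0125), a call lost without the 24 h array of replicate 1 or 2 or the 48 h array of replicate 1 (limma adjusted p = 0.0654 to 0.0887). Rb1, the retinoblastoma protein that restrains S phase entry, measured 1664, 1638 and 1105 at 24 h and 956, 1147 and 630.5 at 48 h and fell by 0.69 (SE 0.13; limma adjusted p = 0.0113), beside the fall of Cdkn1c. Cdkn1a, the inhibitor p21, had a log2 difference of -0.30 that was not called (limma adjusted p = 0.15) at the brighter probe set, while another A probe set fell by 0.67. The other 15 of the 18 genes of the list were not called at the probe set used. Myc, which drives growth and ribosome production, rose by 0.62 (limma adjusted p = 0.0335), the only one called of 30 genes of ribosome biogenesis.

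A few genes of the extracellular matrix rose. Vcan, the large matrix proteoglycan versican, measured 191, 189.5 and 459.7 at 24 h and 577, 467 and 722 at 48 h, without overlap, and rose by 1.09 (SE 0.26; limma adjusted p = 0.036). Lamb1, a laminin chain of basement membranes, rose by 0.68, and these were the only ones called of 25 matrix glycoproteins, whose median step was 0.30. The protease Adamts5, which cleaves versican and aggrecan, measured 342, 272 and 1157 at 24 h and 673, 599 and 1603 at 48 h and rose by 0.81 (SE 0.18; limma adjusted p = 0.0263), and Mmp11 by 0.79 (0.0551 with the replicate block). Replicate 3 held the highest values of Vcan, Lamb1 and Adamts5 at both hours. It also held the highest fibroblast marker sum at both hours, 12810 and 11840, with all 10 markers measured and none at 0. Most of that sum was S100a4 (7698.5 and 6862.9) and Col3a1 (3772 and 3606.9). Tcf4 was lowest in replicate 3 at both hours (882.2 and 892.1), and the other markers were low and went either way. The part of fibroblasts in these rises was not tested. Of 27 collagen genes limma called 0, with 5 higher and 2 lower at an unadjusted p under 0.05, where 2158 of all 12446 genes passed in either direction. Cd34, carried by quiescent muscle stem cells and by vascular and stromal cells, measured 53.9, 65.5 and 744 at 24 h and 142, 164 and 1044 at 48 h and rose by 0.85 (SE 0.19; limma adjusted p = 0.0258), with the hours overlapping through replicate 3, and the Notch ligand Dll1 fell by 0.87 (SE 0.14; limma adjusted p = 0.00609).

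Most housekeeping and signalling lists showed 1 or 2 called genes or none. The desaturases Fads1 and Fads2 rose by 0.62 and 0.71, the latter with limma adjusted p = 0.0655 with the replicate block. Of 24 genes of p53 and apoptosis Casp8, an initiator caspase, and Bcl2l11, the death promoter Bim, rose by 0.64 and 0.67 (limma adjusted p for Bcl2l11 with the replicate block = 0.0511). Among 33 immediate early genes Klf4 rose by 0.66, and Mafk and Jun fell by 0.72 and 0.35 (limma adjusted p for Jun with the replicate block = 0.0676). Single falls were those of Herpud1 of the endoplasmic reticulum (-0.75), the mitophagy receptor Bnip3 (-0.79), the tubulin Tubb2a (-0.78), the membrane-bending Bin1 (-0.51), the sarcoglycan Sgca (-0.54, limma adjusted p = 0.0607 with the replicate block) and, among 20 Wnt genes, the ligand Wnt9a (-0.97 on A, -1.73 on B). Limma called none of 58 genes of oxidative phosphorylation, of which 46 had a lower mean, 5 of them at an unadjusted p under 0.05, with a list median of -0.088. Nor did it call any of 34 proteasome genes, 7 of them lower at an unadjusted p under 0.05. Over all 12446 genes 2158 had an unadjusted p under 0.05 in either direction, so that such counts alone do not set a list apart. The other lists without a call each had 0 to 5 genes higher and 0 to 3 lower at an unadjusted p under 0.05. Among them were 49 mitochondrial ribosomal and 37 lysosome genes, 19 genes each of glycolysis and cholesterol synthesis and 15 of the citric acid cycle. Also among them were 14 genes of the interferon response, 20 of hypoxia, 30 ribosomal protein genes and 24 of the oxidative stress response. Further lists held 15 genes of NF-kB signalling (5 higher and 1 lower) and 27 of TGF-beta and BMP signalling (5 and 3). The last were 14 genes of the circadian clock and 5 ion channels.

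**Figure D3:**
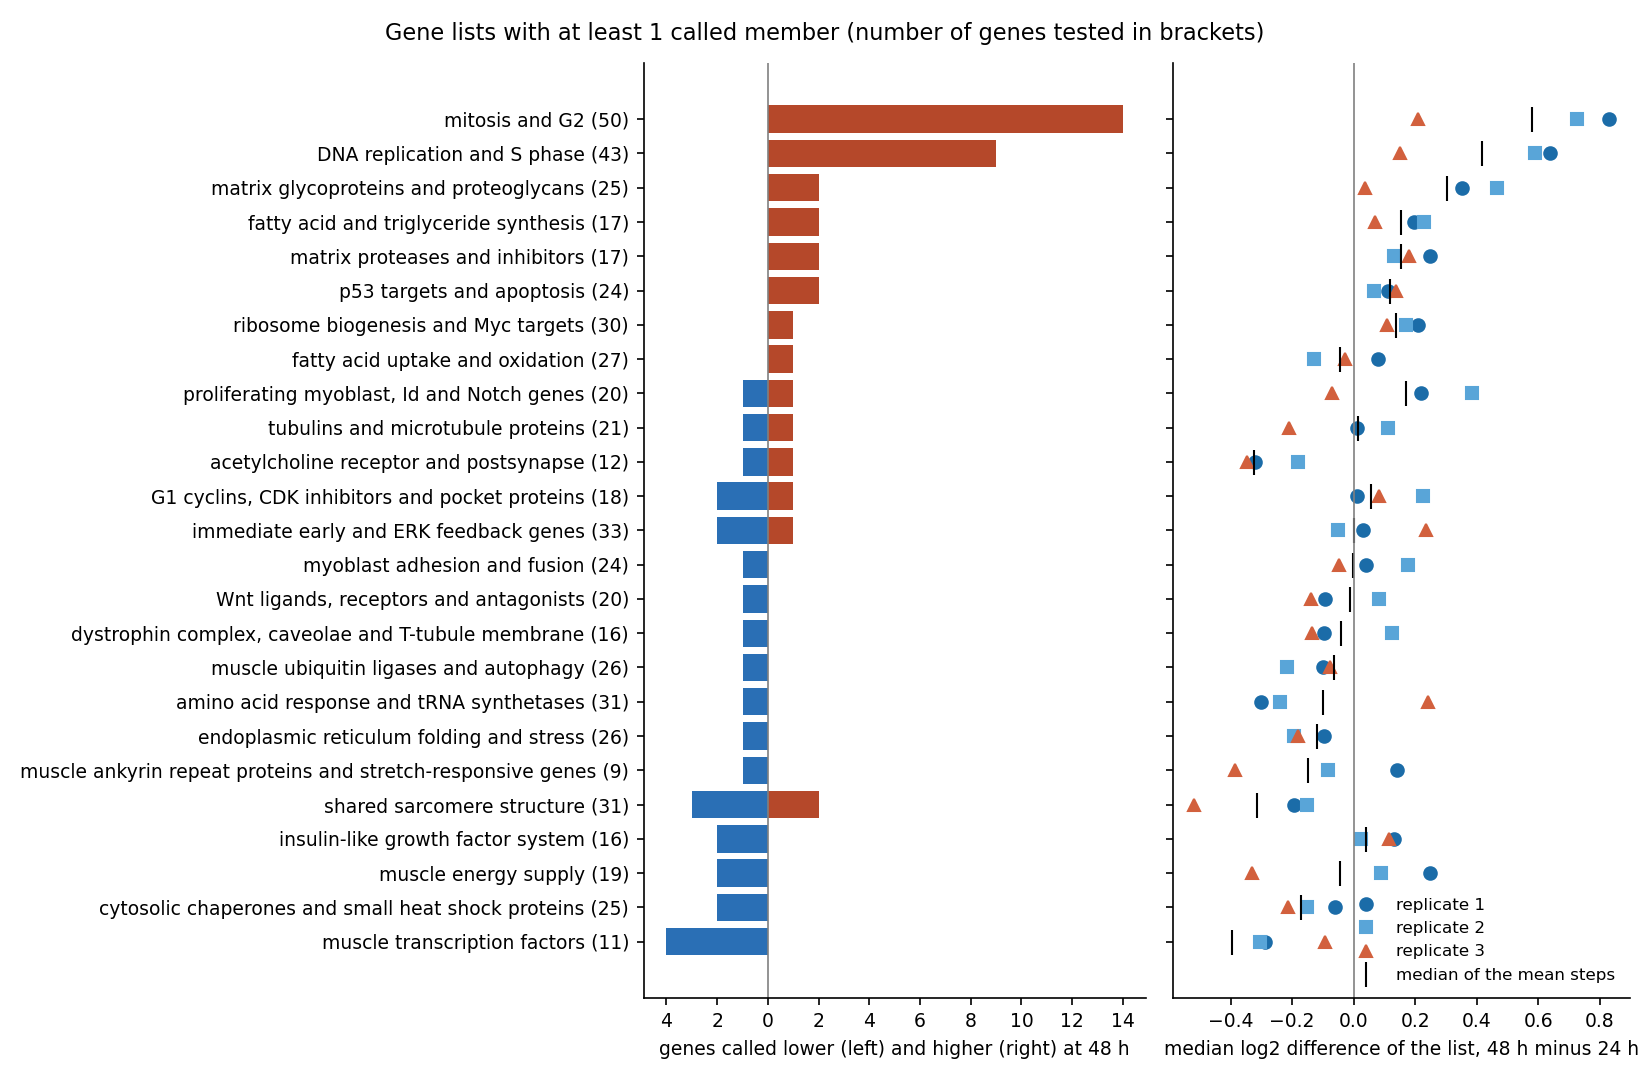
Number of genes called lower and higher at 48 h in each list with at least 1 called gene (left) and the list's median log2 difference in each replicate (right, points, with a bar for the median of the mean steps). The mitosis and S phase lists have 14 and 9 called genes, all higher, and no other list has more than 5.

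Several of the falls followed a higher mean at 24 h than at 12 h. To compare the intervals, the step from 12 to 24 h was subtracted from the step from 24 to 48 h; both use the 24 h arrays, so that an error in those arrays enters them with opposite sign. With replicate 3 as a term this difference was called for 19 probe sets on A (6 positive, 0.0442%, and 13 negative, 0.0958%) and 44 on B (11 positive, 0.0814%, and 33 negative, 0.244%), with 14 (0.103%) and 30 (0.222%) under the replicate block, and with no replicate term for 1 (0.00737%) and 0 (833 and 1174 at an unadjusted p under 0.05). Of these, 12 on A and 33 on B had a higher mean at 24 h than at 12 h and a lower one at 48 h. Dropping the 24 h array of replicate 1, 2 or 3 gave 0, 2 and 131 calls on A and 3, 1 and 141 on B, and dropping the 48 h array gave 9, 24 and 45 on A and 7, 4 and 78 on B. For Cdkn1c the mean intensity was 1934 in the cultures of 0 h, 3677 in those of 12 h, 5229 in those of 24 h and 1222 in those of 48 h, and its steps differed by -2.46 on the log2 scale (limma adjusted p = 0.00991). Fgf21 went from a mean of 552.3 at 0 h through 3025 at 24 h to 843 at 48 h, a difference of -2.38 (limma adjusted p = 0.00733). Ankrd2, from 217 through 1132 to 469 at the same hours, gave -2.14 (limma adjusted p = 0.0132), and Tagln, from 2225 through 4082 to 1607, gave -2.11 (0.00524). The calls of Cdkn1c, Fgf21 and Ankrd2 were lost without the 24 h array of replicate 1 or 2 (limma adjusted p = 0.0752 to 0.21). That of Tagln was lost without the 24 h array of replicate 1, which left 0 calls on A. Exoc3l, whose mean went from 925 through 1473 to 204.5 between 12 and 48 h, had the largest negative difference on B, -3.02 (limma adjusted p = 0.0283), a call lost without replicate 1 or 2 at either hour (0.0522 to 0.183) and with quantile normalization (0.081).

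**Figure D4:**
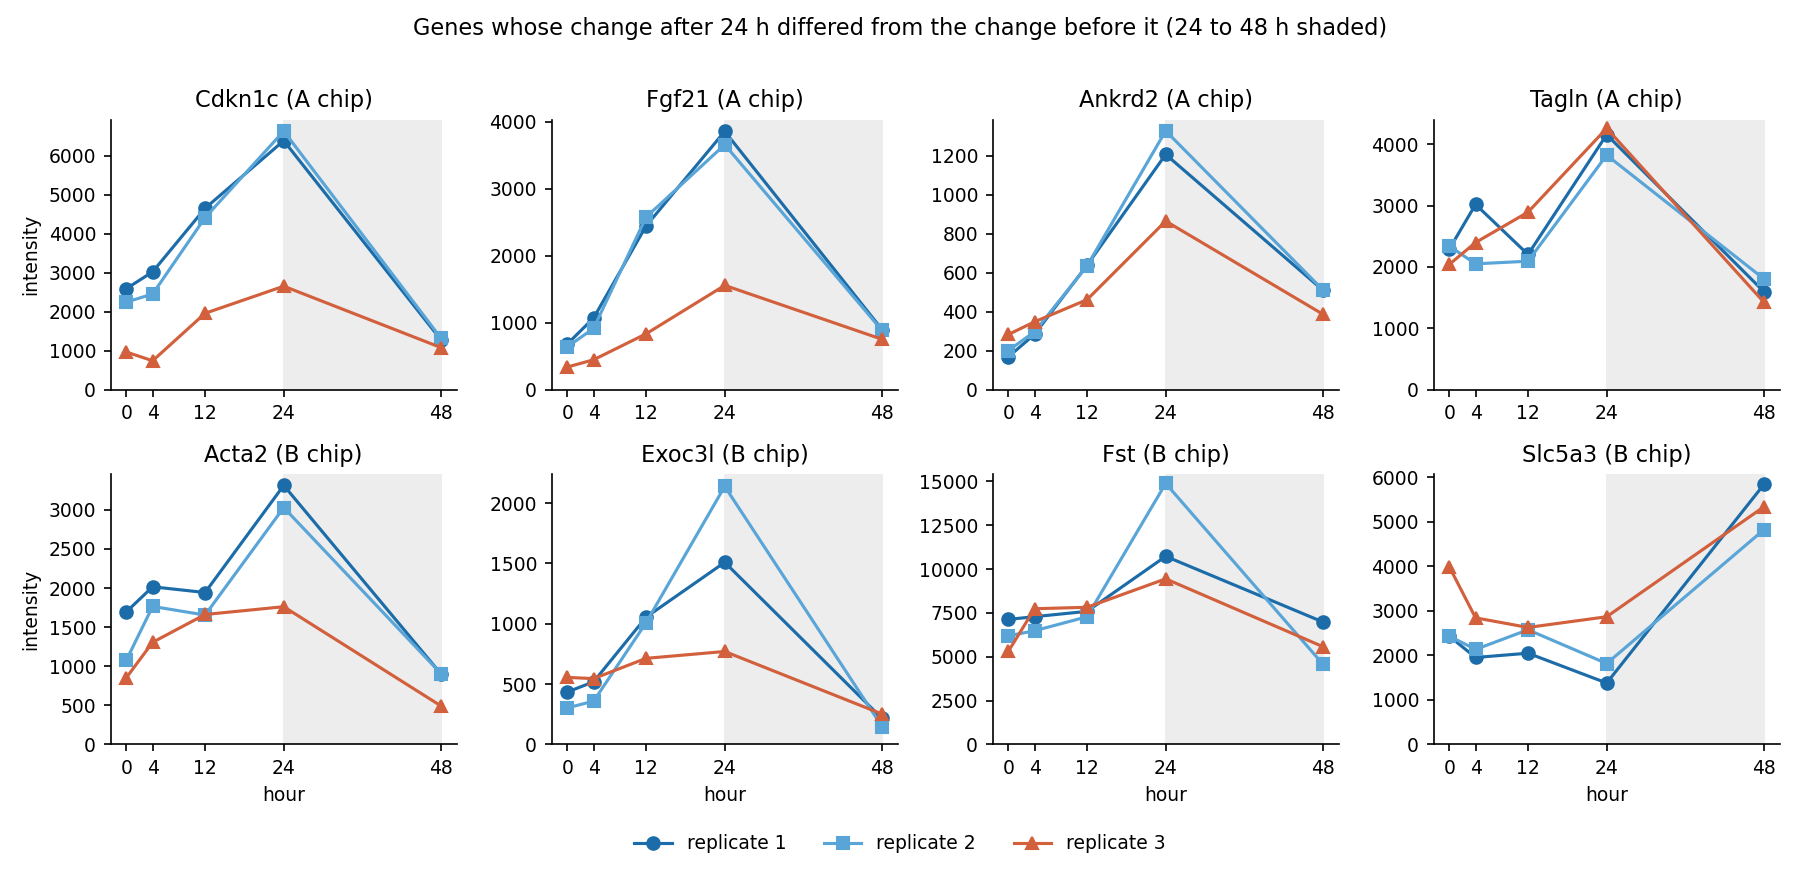
Intensity of 8 genes over the 5 hours of the course, 1 line per replicate, with the interval from 24 to 48 h shaded. Cdkn1c, Fgf21, Ankrd2, Tagln, Acta2, Exoc3l and Fst have their highest mean at 24 h and fall after it, and Slc5a3 goes from a mean of 2021 at 24 h to 5337 at 48 h.

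The opposite course, down to 24 h and up after it by the sign of the mean steps, was seen in 6 of the probe sets called on A and 11 on B. The step after 24 h could be near 0, as for Car2 on A, with means of 124 at 24 h and 126.3 at 48 h. The difference between its steps had a limma adjusted p of 0.0286, and of 0.0524 with the replicate block, which ends the call. Of all 19 calls on A and 44 on B, in either direction, 14 and 39 also had the step from 24 to 48 h called. The balance depended on the fit. On A the positive differences outnumbered the negative ones in replicates 1 and 2 alone (138 and 92), with array weights (673 and 423) and without the 24 h array of replicate 3 (87 and 44). On B they were fewer in those 3 settings (67 and 116, 16 and 39, and 64 and 77). Slc5a3, the inositol transporter, had a difference of 1.74 (limma adjusted p = 0.0283), with means of 2417, 2021 and 5337 at 12, 24 and 48 h. Dnmt1, the maintenance DNA methyltransferase, gave 1.82 (limma adjusted p = 0.0283), with 892, 503 and 1059. For Id3 the positive difference, 1.34 (limma adjusted p = 0.0181), came from the fall before 24 h, from a mean of 2335 to 1069, while the step after it was not called. Without the 24 h array of replicate 1 limma called 0 differences on A, so that those of Id3 and Car2 were lost. Without the 24 h array of replicate 2 it called 0 positive differences on B, so that those of Slc5a3 and Dnmt1 were lost. Rpl37a, a ribosomal protein, had the largest positive difference on A, 2.53, from a probe set that read 344 at 24 h, and another Rpl37a probe set gave -0.01. Probe sets also disagreed for Cnn3 (-2.29 against 0.16), Rai14 (2.55 against -0.51) and Simc1 (2.53 against -0.24).

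In replicate 3 some genes moved against replicates 1 and 2. The difference between its step and theirs was called for 13 probe sets on A (7 positive, 0.0516%, and 6 negative, 0.0442%) and for 0 on B, where 962 had an unadjusted p under 0.05 from limma. Replicate 3 has 1 array per hour, so that its own spread is taken from the other arrays, and a single array can set the result. Leaving out one array of replicate 1 or 2 left between 0 (the 24 h array of replicate 2) and 7 calls on A. Trib3, a pseudokinase induced by amino acid shortage, measured 307, 277 and 368 at 24 h and 190, 117 and 1256 at 48 h, and its step in replicate 3 exceeded that of the others by 2.54 (limma adjusted p = 0.0211, and 0.11 and 0.112 without the 24 h array of replicate 1 or 2). Chac1, a glutathione-degrading enzyme of the same response, measured 864, 867 and 821 at 24 h and 573, 533 and 1583 at 48 h, a difference of 1.54 (limma adjusted p = 0.0467). Both were lowest at 48 h in replicates 1 and 2 and highest at 48 h in replicate 3. The other 5 positive calls, given here because so few were made, were Ppp1r15a, Cebpb and Atf5, also known from the integrated stress response, with H2-K1 and Anp32a; for Anp32a (2.20) another probe set gave -0.20. The 6 negative calls were Sct, Parm1, Rgs4, Plagl1, Ccn2 and Ogn, of which Parm1, a mucin-like membrane protein, measured 1074, 1129 and 395 at 24 h and 623, 724 and 17.8 at 48 h. For Trib3 and Parm1 another probe set on A was tested and was not called for this difference.

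The list of amino acid response genes and tRNA synthetases holds 3 of those 7 positive calls, Trib3, Chac1 and Cebpb. The difference between replicates was not tested for the list as a whole. Its 31 tested genes had median steps of -0.30 and -0.24 in replicates 1 and 2 and 0.24 in replicate 3, and Fgf21 was its only call over all replicates. In replicates 1 and 2 alone 6 of the 31 fell, where 2.41% of all genes did. Psph, the last enzyme of serine synthesis, measured 1457, 1381 and 1599 at 24 h and 698, 813 and 2149.6 at 48 h, and Asns, asparagine synthetase, 5414, 5267 and 6115 at 24 h and 4688, 3942 and 6407 at 48 h, neither called. The motif TGATGNAA, the composite site of C/EBP and ATF factors, stood in a window of 3.25% of the 27025 genes with one and in 7 of the 26 list genes with a window (26.9%), searched on both strands of the 200 bases before the start. The windows of Fgf21, which fell in all replicates, and of Chac1, which split, are shown because both hold 1 match (capitals): Fgf21 at chr7:45615491-45615690 on the minus strand, 139 to 132 bases before the start, and Chac1 at chr2:119351042-119351241 on the plus strand, 193 to 186 bases before it.
Fgf21: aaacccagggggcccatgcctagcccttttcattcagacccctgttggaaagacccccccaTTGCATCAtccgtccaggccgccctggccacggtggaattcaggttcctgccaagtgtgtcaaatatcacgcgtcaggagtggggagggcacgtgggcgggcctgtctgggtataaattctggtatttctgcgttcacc
Chac1: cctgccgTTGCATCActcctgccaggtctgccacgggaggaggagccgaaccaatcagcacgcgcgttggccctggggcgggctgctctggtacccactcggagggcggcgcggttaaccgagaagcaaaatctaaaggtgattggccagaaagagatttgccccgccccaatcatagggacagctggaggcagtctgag
In both the match reads TTGCATCA, the motif on the other strand.

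**Figure D5:**
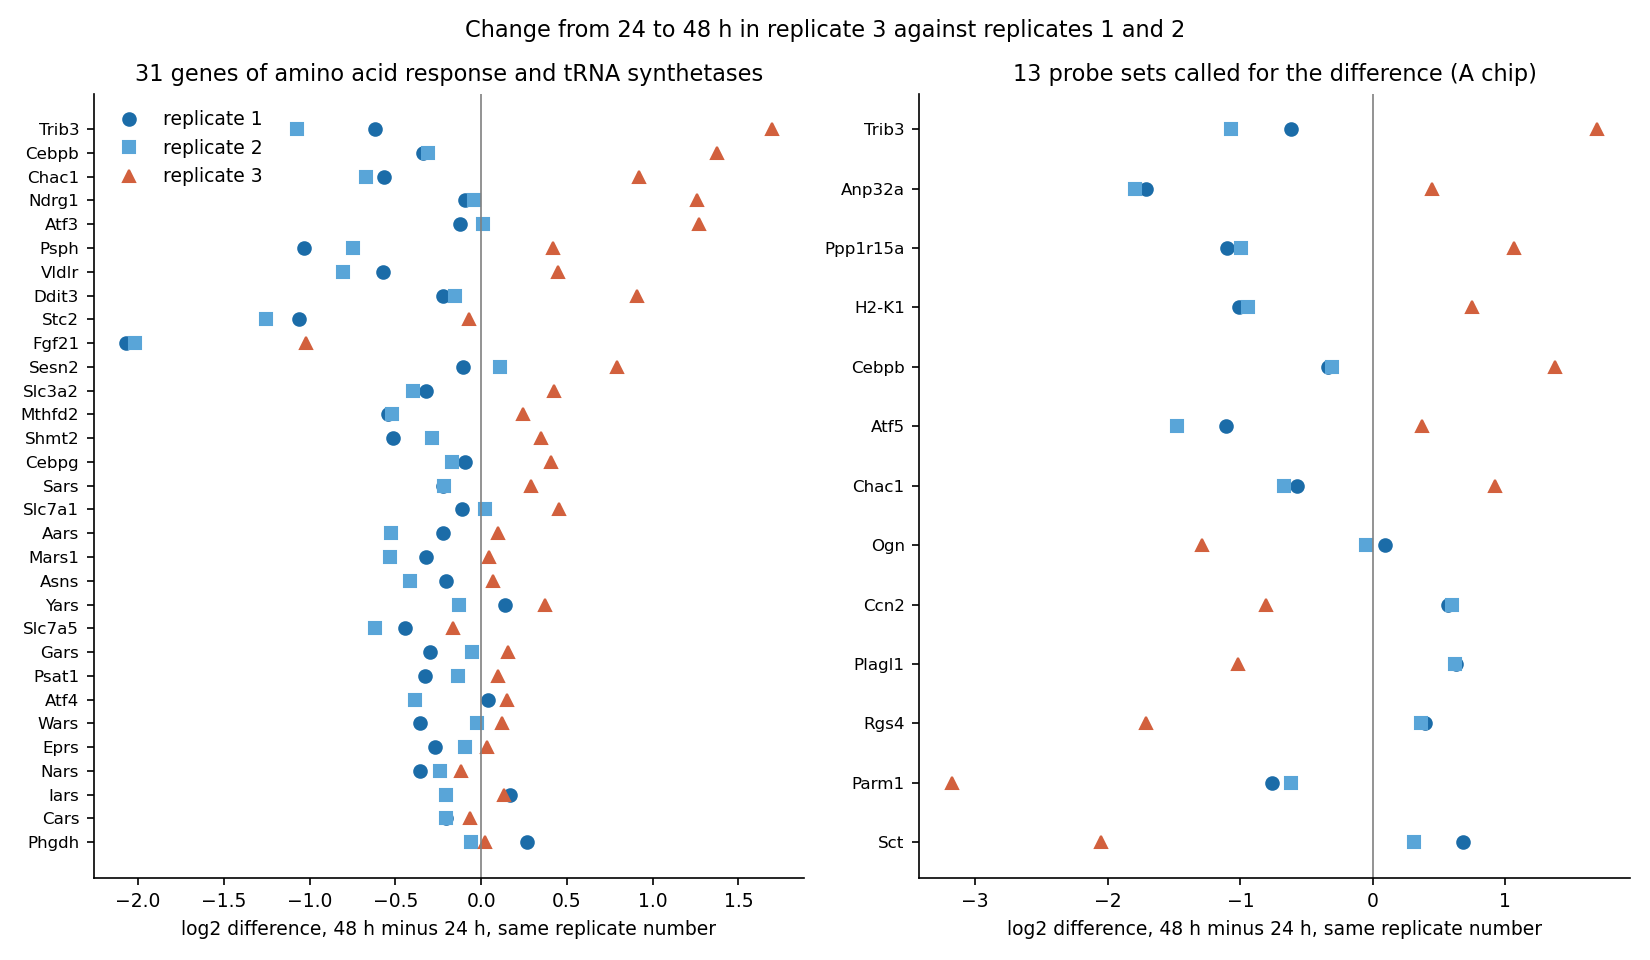
Log2 difference between 48 h and 24 h in each replicate for the 31 genes of the amino acid response list (left) and the 13 probe sets called for a different step in replicate 3 (right). Replicate 3 lies right of replicates 1 and 2 for Trib3, Chac1 and most genes of the left panel, and left of them for Sct and Parm1.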

How the data were processed

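The deposited values are array intensities, 1 per probe set and array, scaled by the authors to a common trimmed mean, as the values show; the labels' protocols name the manufacturer's standard procedure, and the software is not given in the sources used here. Each chip was analysed on its own. Intensities were taken as log2(intensity + pseudocount), the pseudocount being the 20th percentile (29 on A, 54 on B), and the upper 60% of probe sets by mean were tested. limma 3.58.1 (R 4.3.3) was fitted to all 15 arrays of a chip with a trended variance, once with no replicate term, once with replicate 3 as a term and once with the replicate as a block, with Benjamini-Hochberg adjustment within a chip. The scripts' tests were checked on simulated data.

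The replicate numbers were taken to pair the samples, because deviations of same-numbered 24 h and 48 h arrays from their hour's mean correlated by more than 0.1 for every number (0.402, 0.429 and 0.716 on A, 0.146, 0.159 and 0.385 on B). Replicates 1 and 2 correlated with each other as well (0.426 and 0.491 on A), so that the pairing mostly separates replicate 3.

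Genes were named through the platform's annotation: 20380 of 22690 probe sets on A and 14661 of 22575 on B had 1 gene symbol, and lists use 1 probe set a gene, the brightest, from A where tested there. The gene names are those of the annotation and can be old. The comparison, its members and the gene lists were chosen with earlier results of these data known. Genes were named in the text by rule: the largest called and non-overlapping changes of each chip, 25 set genes, up to 4 members of a list with the smallest p and up to 2 against its majority, and the largest called differences between steps. Mki67, Mcm5, Hmga2, Dnmt1, Cnn1, Psph, Asns, Chac1 and genes named only because a fit with the block lost them were chosen after their values were seen.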

Additional observations from a re-analysis of the deposited data

Results flagged for a closer look

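A test of the difference between the steps before and after 24 h singled out 10 named probe sets; both steps use the 24 h arrays. On A the step from 24 to 48 h minus the step from 12 to 24 h was 2.53 for Rpl37a, -2.46 for Cdkn1c, -2.38 for Fgf21, -2.29 for Cnn3, -2.23 for Adgrg1 and -2.14 for Ankrd2 on the log2 scale. On B it was -3.02 for Exoc3l, 2.59 for Gm1673, 2.55 for Rai14 and 2.53 for Simc1. With the replicate block the calls of Cnn3 (limma adjusted p = 0.0543) and Simc1 (0.0557) were lost. On A every one of the 6 calls was lost without the 24 h array of replicate 1 (limma adjusted p = 0.0951 to 0.337). On B every one of the 4 was lost without replicate 1 or 2 at either hour (0.0512 to 0.216), with quantile normalization (0.081 to 0.0822), with no filter (0.0669 to 0.0908) and with no variance trend (0.0561 to 0.117).

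A test of the difference between replicate 3 and replicates 1 and 2 singled out 4 more on A, where replicate 3 has 1 array per hour. The step of replicate 3 minus that of the others was -2.55 for Sct, 2.54 for Trib3, -2.49 for Parm1 and 2.20 for Anp32a. Every one of these 4 calls was lost without the 24 h array of replicate 2 (limma adjusted p = 0.0575 to 0.112), and those of Trib3 and Anp32a also without that of replicate 1 (0.11 each) and with no filter (0.0779 each). Sct, the hormone secretin, measured 327.8, 326.8 and 210.1 at 24 h and 542, 413 and 28.7 at 48 h, up in replicates 1 and 2 and near the floor in replicate 3. Anp32a measured 796, 771 and 1297 at 24 h and 223, 201 and 1779 at 48 h. No group exceeded 3 arrays, so that no single array was tested as an outlier.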

How the results depend on the processing

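The counts of called probe sets depended on how replicate 3 was modelled. Without a replicate term, 2 probe sets of A were called, and 1 after quantile normalization, with the pseudocount multiplied by 0.5, with a pseudocount of 1 or with the upper 40% tested, 7 after median centring, 0 with only the arrays of the hours compared, 934 with array weights, 293 with the replicate block, 349 with replicate 3 as a term and 628 in replicates 1 and 2 alone; leaving out one array gave 0 to 21. On B the 17 calls became 9 and 27 with the pseudocount multiplied by 0.5 and by 4, 4 with no filter, 27 with the upper 40%, 0 with only the arrays of the hours compared, 5 with no variance trend, 178 with array weights, 302 with the replicate block, 349 with replicate 3 as a term and 519 in replicates 1 and 2 alone, and 0 to 106 when one array was left out. With replicate 3 as a term, the 349 of A became 193 with no filter, 687 with only the arrays of the hours compared, 1266 with array weights and 59 at 2-fold or more, with 22 to 486 when one array was left out. The 349 of B became 208 with no filter, 103 with no variance trend and 131 at 2-fold or more, with 75 to 637 when one array was left out.

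The difference between the steps before and after 24 h, called for 19 on A, was called for 11 with no filter or no variance trend, 1096 with array weights, 1 with no replicate term, 230 in replicates 1 and 2 alone and 0 to 131 when one array was left out. On B the 44 became 4 with quantile normalization or only the arrays of the hours compared, 9 with no filter, 0 with no variance trend or no replicate term, 183 in replicates 1 and 2 alone and 1 to 141 when one array was left out. The difference in replicate 3, called for 13 on A, was called for 7 with median centring, 5 with the pseudocount multiplied by 4 or no variance trend, 4 with no filter, 26 with array weights and 0 to 7 when one array was left out; on B, 1 was called after quantile normalization and 0 when one array was left out. The cause of these shifts was not tested.

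Some single steps reversed. Other probe sets gave -0.14 and -0.049 for Pip5k1a, -0.096 for Pvt1, -0.14 for Rai14, -0.019 for Mast4, 0.15 for Cdv3, -0.11 and -0.077 for Mef2c and 0.023 for Myh1, and, for the difference between steps, -0.014 for Rpl37a, 0.16 for Cnn3, -0.51 for Rai14 and -0.24 for Simc1, and for the difference in replicate 3, -0.20 for Anp32a. Median centring gave -0.013 for Mef2c, -0.025 for Id1 and -0.079 for Ryr1. Array weights gave 0.12 for Myh1. Replicates 1 and 2 alone gave 0.083 for Id2, 0.052 for Myh3, 0.33 for Myh1, 0.14 for Actc1, 0.11 for Acta1 and 0.10 for Igf2. When one array was left out, the step ranged from -0.13 to 0.62 for Myf5, -0.12 to 0.50 for Mef2c, -0.25 to 0.25 for Id2, -0.33 to 0.13 for Myh3, -0.27 to 0.42 for Myh1, -0.13 to 0.90 for Myh7, -0.31 to 0.068 for Actc1, -0.21 to 0.13 for Acta1, -0.069 to 0.33 for Ryr1 and -0.24 to 0.038 for Igf2. Of these genes, Pip5k1a, Pvt1, Rai14, Mast4, Cdv3, Rpl37a, Cnn3 and Simc1 were called for the step with replicate 3 as a term, at the probe set first given. Over the alternatives for the steps of all named genes, 890 values kept their direction and call, 121 lost the call, 13 gained it and 38 reversed. For the 10 differences between steps 121 kept both, 77 lost the call and 4 reversed, and for the 4 differences in replicate 3 the counts were 38, 16 and 1. The replicate block ended no call named in the report beside those given there. With 3 arrays an hour a two-sided exact permutation test of one gene cannot go below p = 0.1. A low signal limits Myh11, Lmod1 and other probe sets near the pseudocount.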

Other observations

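Many of the rising probe sets of B carried no gene name. Of the 156 called higher at 48 h on B, 70 (44.9%) were without a single gene symbol, against 15 of the 193 called lower (7.77%) and 29.5% of all tested there. On A the shares were 14% of those called higher, 4.91% of those called lower and 7.59% of those tested. The called falls were also brighter at 24 h: the median of the mean intensities was 3479 for falls and 434 for rises on B, where it was 444.8 for all tested, and 1553 and 343.4 on A, where it was 446. No test was made of these differences.

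The 100 probe sets carried by both chips gave a second reading of samples with the same labels. Their steps on A and B correlated with r = 0.71 across probe sets, which are not independent replicates. The median absolute difference was 0.19 on the log2 scale, and it was mostly to one side. For most of these probe sets the step was lower on B than on A, as for Cdv3 (-0.48 on A and -0.68 on B). Some went the other way, such as Snrnp27 (-0.41 on A and -0.16 on B). The part of this shift in the falls called on B was not tested.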
